A study of Mus musculus with 4 samples.

Results

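The milk protein genes of the mouse mammary gland were followed across 4 mammosphere libraries. The set holds 8 genes, chosen by symbol and not by their values: the caseins Csn1s1, Csn2, Csn1s2a, Csn1s2b and Csn3, together with Lalba, Wap and Trf. All 8 were among the 22609 genes counted, and 5 of them (Csn1s1, Csn2, Csn1s2a, Csn3 and Trf) belonged to the 13638 genes that reached 20 counts in some library. Mammospheres are colonies that mammary cells form in suspension when they cannot attach. Here they were grown for 7 days from basal cells sorted from the mammary glands of Balb/C mice at 4 months of age. Mice of the BPA+DMBA group were dosed from day 21, for 3 weeks, with bisphenol A (BPA), an estrogen-like building block of plastics, by daily gavage of 25 µg/kg. At 2 months they were given the carcinogen DMBA, a polycyclic aromatic hydrocarbon, at 30 mg/kg in a single gavage. Mice of the DMBA group were given sesame oil and then DMBA, those of the BPA group BPA alone, and those of the control group sesame oil alone. All groups were kept on a diet low in phytoestrogens after puberty, and all spheres grew in the same medium, whose listed additions include insulin and hydrocortisone and name no prolactin. Each group is 1 library from the pooled spheres of 5 animals, so a difference between libraries has no replicate check.

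Caseins are the main proteins of milk. The alpha-s and beta-caseins carry calcium phosphate inside casein micelles, and kappa-casein covers the micelle surface and keeps it soluble. Alpha-lactalbumin is the regulatory subunit of lactose synthase, whey acidic protein is the main whey protein of mouse milk, and transferrin is an iron carrier secreted into milk and plasma. In alveolar cells of the pregnant and lactating gland these genes are induced by prolactin, whose receptor activates JAK2 and the transcription factor STAT5, together with glucocorticoids and insulin.

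Promoter sequences are shown for the 3 caseins that had a promoter window, with matches to the STAT5 consensus in capitals. RefSeq promoter windows (build GRCm38.p6, 250 bases before to 50 bases after the start of transcription) were matched by symbol for 5 of the 8 genes. Csn3, Csn1s2b and Trf had no window and could not be searched, so matches cannot be compared between these 3 caseins and Csn3. The first 2 sequences are the 250 bases before the start, on the + strand at chr5:87665958-87666207 for Csn1s1 and on the - strand at chr5:87699426-87699675 for Csn2. The last is the surroundings of the match in Csn1s2a, on the + strand at chr5:87774460-87774488.
Csn1s1: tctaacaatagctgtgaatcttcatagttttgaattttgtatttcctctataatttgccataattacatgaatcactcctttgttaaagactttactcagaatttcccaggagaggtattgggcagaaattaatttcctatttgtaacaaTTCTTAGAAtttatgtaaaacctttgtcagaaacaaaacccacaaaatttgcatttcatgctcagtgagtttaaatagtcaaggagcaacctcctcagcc
Csn2: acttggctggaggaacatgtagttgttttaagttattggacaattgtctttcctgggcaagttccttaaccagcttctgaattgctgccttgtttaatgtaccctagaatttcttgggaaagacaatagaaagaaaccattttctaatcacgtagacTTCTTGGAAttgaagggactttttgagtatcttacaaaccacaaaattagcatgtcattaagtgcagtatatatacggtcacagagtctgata
Csn1s2a: ttatagtgctTTCTTAGAAttacaatgac

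The STAT5 consensus was searched as TTCNNNGAA, which reads the same on either strand. Csn1s1 held 1 match at positions -100 to -92 from the start, Csn2 held 1 at -93 to -85, and Csn1s2a held 1 at 21 to 29, after the start. The windows of Wap and Lalba held 0 matches. Over all 32841 promoter windows of this length, 8.30% held at least 1 match. The core motif of the glucocorticoid receptor, TGTTCT or its reverse AGAACA, was matched in 1 of the 5 windows, that of Csn1s2a at -59 to -54, and in 19.0% of all windows. The C/EBP sequence TTGCNNAA or its reverse TTNNGCAA was matched in 0 of the 5 and in 10.8% of all windows. The glucocorticoid and STAT5 matches of Csn1s2a did not overlap. A match is a description of the letters and does not show binding.

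Counts given to genes totalled 15672532 in BPA+DMBA, 26682738 in DMBA, 19672730 in BPA and 30627055 in control. Levels are given as CPM, counts divided by library sizes after TMM scaling, and a gene with 0 counts in a library can hold up to 3 counts, which is 0.189 CPM in BPA+DMBA, 0.108 in DMBA, 0.157 in BPA and 0.101 in control. Intervals are 95% intervals, exact unless stated otherwise, and, like these limits, cover counting error only. Krt5, a basal keratin, was present in every library, with 468 CPM in BPA+DMBA, 559 in DMBA, 149 in BPA and 118 in control. Not every basal marker was abundant: Actg2 had 51 counts in BPA+DMBA, 172 in DMBA, 8 in BPA and 14 in control. Markers of luminal progenitors were present too, with Kit, a receptor tyrosine kinase, at 151, 129.7, 273 and 259.9 CPM in the same order. Some genes of fat, white blood cells and liver were near 0: Adipoq had at most 5 counts, Ptprc at most 3 and Alb at most 1 in any library. Others were detected. Fabp4, a fat cell marker, had 241 counts in BPA+DMBA, 494 in DMBA, 122 in BPA and 169 in control. Cd68, an immune marker, had 373, 637, 512 and 630 counts in that order. Fibroblast markers were abundant, with sums of 8927, 5368, 6467 and 8681 CPM.

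Milk protein transcripts were present in every library, and Csn3 and Trf made up most of them. Summed over the 8 genes, they had 1105 CPM in BPA+DMBA, 1014 in DMBA, 1682 in BPA and 1916 in control, so the sum was lower in each of the libraries from DMBA-treated mice than in the others. In pooled RNA, fewer cells that express a gene and less of its RNA per cell cannot be told apart, and the share of each of the 5 animals in a pool is unknown.

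Csn3, which encodes kappa-casein, was the most abundant casein. It had 8515 counts (536 CPM, interval 525 to 548) in BPA+DMBA, 14905 (535 CPM, 526 to 543) in DMBA, 14159 (739.8 CPM, 728 to 752) in BPA and 24943 (841 CPM, 830.4 to 851) in control. The BPA+DMBA and DMBA libraries had the same level within counting error, and control and BPA were above both. Per kilobase of its longest coding transcript, Csn3 stood at rank 78 of 13510 genes in BPA+DMBA, 68 in DMBA, 43 in BPA and 33 in control. The log2 ratio was -0.65 in DMBA against control (interval -0.68 to -0.62) and -0.46 in BPA+DMBA against BPA (-0.50 to -0.43), while it was 0.00355 in BPA+DMBA against DMBA (-0.04 to 0.04) and -0.18 in BPA against control (-0.21 to -0.15). All 4 were under 2-fold.

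Csn1s1, which encodes alpha-s1-casein, behaved unlike Csn3. It had 957 counts (60.2 CPM, interval 56.5 to 64.2) in BPA+DMBA, 3406 (122 CPM, 118 to 126) in DMBA, 1335 (69.8 CPM, 66.1 to 73.6) in BPA and 2823 (95.2 CPM, 91.7 to 98.7) in control. The DMBA library was the highest and the BPA+DMBA library the lowest, and no pair of these intervals overlapped. Its log2 ratio was 0.36 in DMBA against control (0.29 to 0.43) but -0.21 in BPA+DMBA against BPA (-0.33 to -0.09), opposite in sign. On either background the BPA-exposed library was the lower: the log2 ratio was -1.02 in BPA+DMBA against DMBA (-1.13 to -0.92) and -0.45 in BPA against control (-0.54 to -0.35).

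Csn2 and Csn1s2a were seen almost in the DMBA library alone. Csn2, which encodes beta-casein, had 3 counts in BPA+DMBA, 162 in DMBA, 0 in BPA and 2 in control. In DMBA that was 5.81 CPM (interval 4.95 to 6.78), against 0.189 CPM in BPA+DMBA, at most 0.157 in BPA and 0.0674 in control. Its level in DMBA was 86.2-fold that in control (95% interval 23.5 to 718). In BPA+DMBA it was 30.8-fold lower than in DMBA (10.3 to 151), and it was at or under the limit for 0 counts in the other 3 libraries.

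Csn1s2a, which encodes an alpha-s2-casein, had 0 counts in BPA+DMBA, 36 in DMBA, 2 in BPA and 0 in control. Its level in DMBA was 1.29 CPM (interval 0.905 to 1.79), at least 12.8-fold higher than in control, and the level in BPA+DMBA was at least 6.84-fold lower than in DMBA. Both bounds set the library without reads at 3 counts. Csn1s2a and Csn1s2b are paralogs, and whether they share reads was not tested.

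The other milk genes were at the edge of detection. Csn1s2b, the second alpha-s2-casein gene, had 1 count in BPA+DMBA, 1 in DMBA, 1 in BPA and 0 in control. Wap, the gene of whey acidic protein, had 1 count in BPA and 0 in the rest. Neither was above the limit for 0 counts in any library, so a difference was not detectable at this depth. Lalba, the gene of alpha-lactalbumin, was low but detected in every library, with 11 counts in BPA+DMBA (0.693 CPM, interval 0.346 to 1.24), 14 in DMBA (0.502 CPM, 0.275 to 0.843), 10 in BPA (0.523 CPM, 0.251 to 0.961) and 16 in control (0.539 CPM, 0.308 to 0.876). All 4 intervals of Lalba overlapped, and the ratio of DMBA to control was 0.931 with an interval from 0.421 to 2.04.

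**Figure D1:**
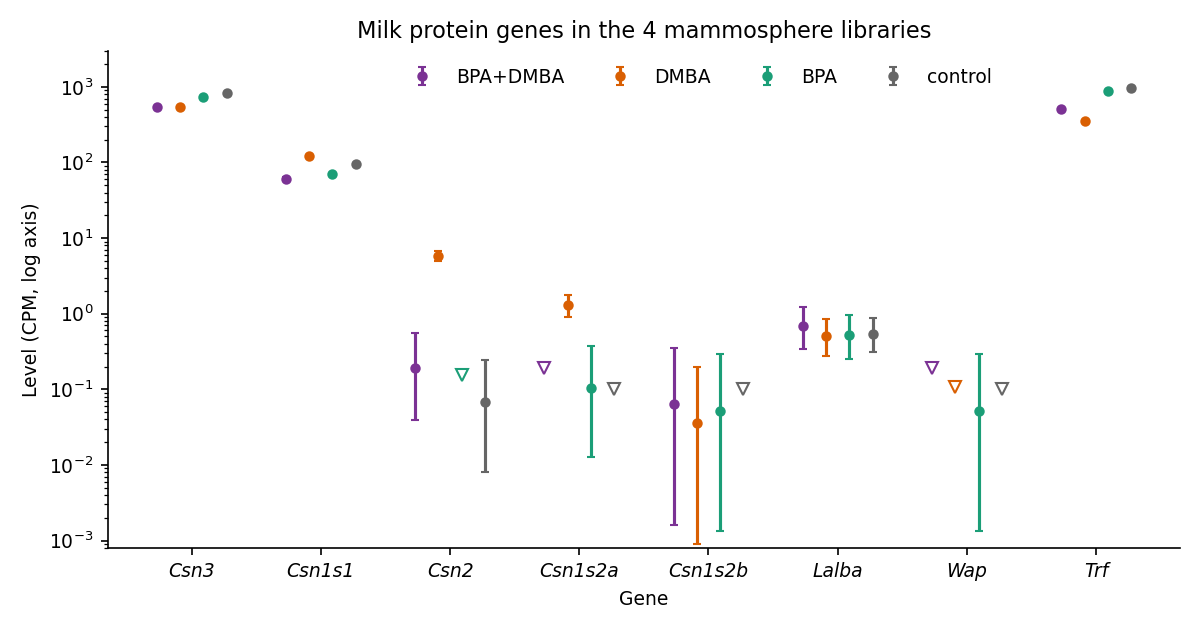
Level of each milk protein gene in CPM (log axis) in the BPA+DMBA, DMBA, BPA and control libraries, with exact 95% counting intervals as bars; open triangles mark 0 counts, drawn at the limit of 3 counts. Csn3 and Trf lie at 349.8 CPM or more in every library, whereas Csn2 is at 5.81 CPM in the DMBA library and at or under 0.189 CPM elsewhere.

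Trf, the gene of transferrin, had more CPM than Csn3 in BPA and control and less in BPA+DMBA and DMBA. It had 8071 counts (508 CPM, interval 497 to 519) in BPA+DMBA, 9751 (349.8 CPM, 343 to 357) in DMBA, 16690 (872 CPM, 859 to 885) in BPA and 29051 (979 CPM, 968 to 991) in control. The DMBA library was the lowest and control the highest, and the 4 intervals did not overlap. The log2 ratio was -1.48 in DMBA against control (-1.52 to -1.45) and -0.78 in BPA+DMBA against BPA (-0.82 to -0.74). BPA-exposed libraries did not stand on 1 side: the log2 ratio was 0.54 in BPA+DMBA against DMBA (0.50 to 0.58) and -0.17 in BPA against control (-0.19 to -0.14). Per kilobase, Trf was at 198 CPM in BPA+DMBA, 136 in DMBA, 339 in BPA and 381 in control, below Csn3, which was at 336, 335, 464 and 527 in that order.

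**Figure D2:**
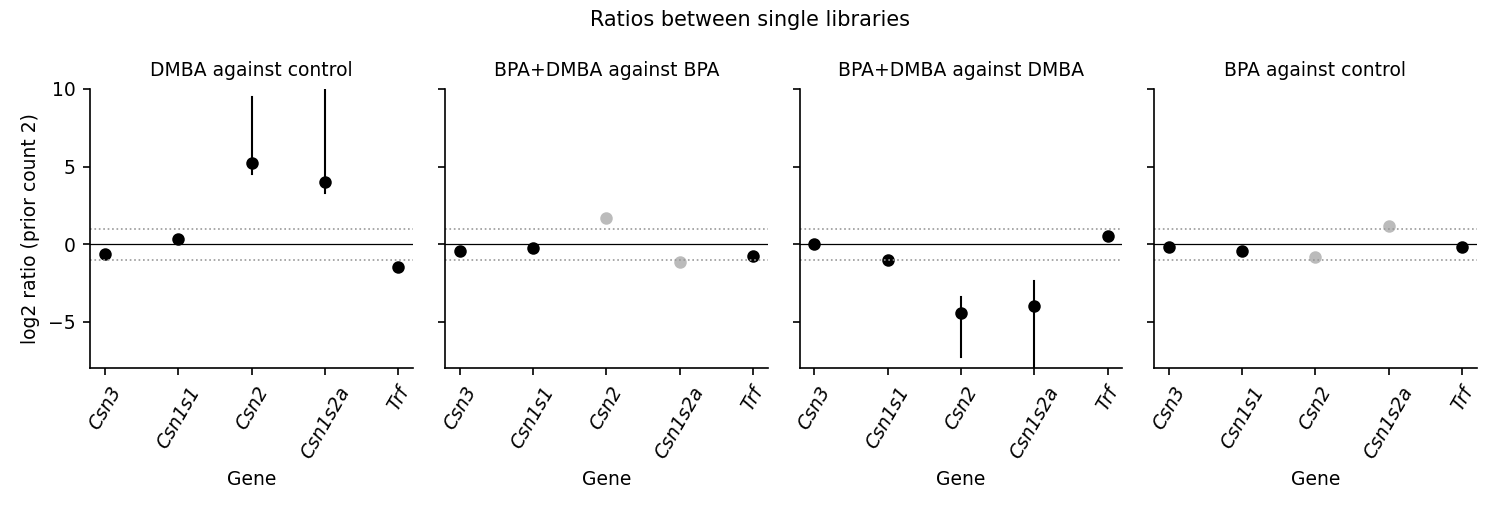
Log2 ratio between single libraries for the 5 genes with at least 20 counts in a library (vertical axis; prior count of 2), 1 panel a pair, with exact 95% counting intervals as lines cut at the axis limits; dotted lines mark 2-fold and grey points have at most 3 counts in both libraries. Csn2 and Csn1s2a lie above 2-fold in DMBA against control and below it in BPA+DMBA against DMBA, and Trf lies at -1.48 in DMBA against control.

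Genes that differed by 2-fold or more between a pair of libraries, with a counting interval that excluded equality, were counted. In DMBA against control 2 milk genes were higher, Csn2 and Csn1s2a, and 1 was lower, Trf; over all 13638 genes tested, 6.55% differed, 4.24% being higher and 2.31% lower. In BPA+DMBA against DMBA 3 were lower, Csn1s1, Csn2 and Csn1s2a, where 1.09% of all genes differed and 0.66% were lower, and 0 milk genes were higher, where 0.425% of all genes were. Csn2 and Csn1s2a passed the count minimum through the DMBA library alone, which favours a difference in these pairs, so their counts give no support of their own. Csn1s1 stood just past the 2-fold limit, at a log2 ratio of -1.02. In BPA+DMBA against BPA 0 of the 5 milk genes differed, beside 3.74% of all genes (2.77% higher, 0.968% lower). In BPA against control 0 differed, beside 0.829% (0.271% higher, 0.557% lower), and in BPA+DMBA against control 0 differed, beside 4.38% (2.98% higher, 1.41% lower). DMBA against control and BPA+DMBA against DMBA share the DMBA library, so the high Csn2 and Csn1s2a counts of that library enter both. Likewise, BPA against control shares the control library with DMBA against control.

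Csn1s1 took its highest share of the casein counts in the DMBA library. Csn1s1 made up 10.1% of all casein counts in BPA+DMBA (exact binomial interval 9.50 to 10.7), 18.4% in DMBA (17.8 to 19.0), 8.61% in BPA (8.18 to 9.07) and 10.2% in control (9.81 to 10.5). Csn3 made up 89.9% in BPA+DMBA, 80.5% in DMBA, 91.4% in BPA and 89.8% in control. The shares of BPA+DMBA and control overlapped within counting error, BPA lay slightly apart from them, and DMBA lay farthest from the rest. Csn2 reached 0.875% of casein counts in DMBA (0.746 to 1.02), against 0.0317% in BPA+DMBA, 0% in BPA and 0.00720% in control. Per kilobase, the level of Csn3 was 7.87 times that of Csn1s1 in BPA+DMBA, 3.87 times in DMBA, 9.38 times in BPA and 7.81 times in control, and even in DMBA the level of Csn1s1 was 19.8 times that of Csn2.

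**Figure D3:**
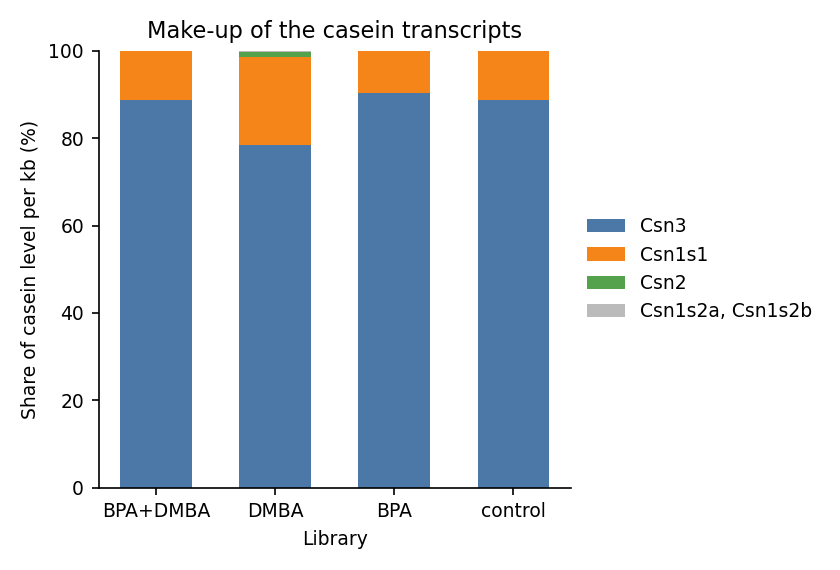
Share of each casein in the summed casein level per kilobase of transcript (percent, vertical axis) in the BPA+DMBA, DMBA, BPA and control libraries. Csn3 takes 88.7% in BPA+DMBA, 78.4% in DMBA, 90.3% in BPA and 88.6% in control, and Csn2 is visible in DMBA alone, at 1.02%.

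The 5 caseins lie in a cluster on mouse chromosome 5, in the order Csn1s1, Csn2, Csn1s2a, Csn1s2b and Csn3, while Lalba, Wap and Trf lie on chromosomes 15, 11 and 9. Levels were thus high at both ends of the cluster and low between them. The cluster and its flanks hold 15 genes that could be matched to the counts, of which 6 had 0 counts in every library. Between the caseins, Odam, a gene of enamel-forming and mammary epithelium, had 9 counts in BPA+DMBA, 13 in DMBA, 2 in BPA and 1 in control, below the count minimum. Its level was thus 0.567 CPM in BPA+DMBA and 0.466 in DMBA, against 0.105 in BPA and 0.0337 in control, so these few reads lay mostly in both libraries from DMBA-treated mice. Of a wider list of 19 genes around the cluster, 4 passed the count minimum and 0 rose or fell with DMBA in the test below. Their log2 ratios in DMBA against control were -0.25 for 1700109H08Rik, -0.16 for Grsf1, which encodes an RNA-binding protein, 0.13 for Utp3, a gene of ribosome processing, and -0.01 for Rufy3, with a median of -0.09 beside -0.01 over all genes. A long noncoding RNA gene that spans Csn3 in RefSeq was not analysed here, and reads from it could not be told from those of Csn3.

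**Figure D4:**
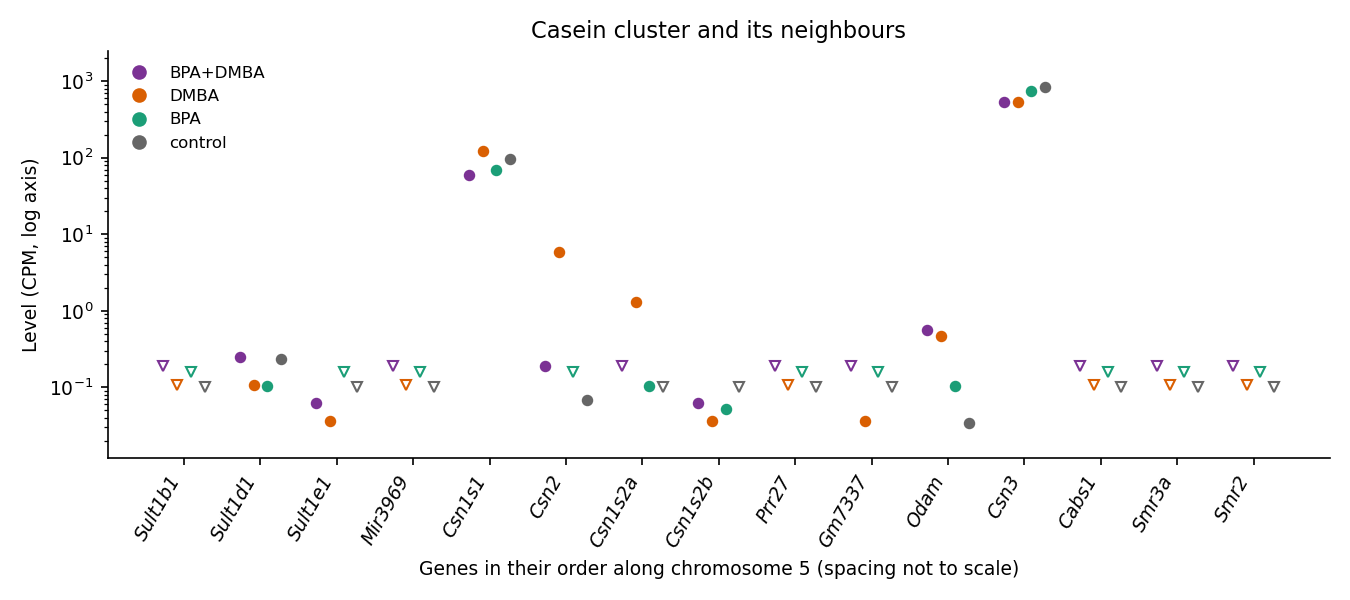
Level in CPM (log axis) of the casein genes and their neighbours, in their order along chromosome 5, in the BPA+DMBA, DMBA, BPA and control libraries; open triangles mark 0 counts, drawn at the limit of 3 counts. Csn1s1 and Csn3, at either end of the caseins, are at 60.2 CPM or more in every library, and 6 of the neighbours have 0 counts throughout.

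The 2 by 2 layout allows a test of DMBA over both backgrounds. It was fitted with edgeR's quasi-likelihood test and an additive model of BPA and DMBA, in which the interaction takes the place of replicates. Of the 5 milk genes tested, Csn2 rose and Csn3 and Trf fell with DMBA, where 14.4% of all genes passed, 6.67% rising and 7.72% falling. The count minimum had kept Csn2 through the DMBA library alone, where it is high, so its call is not independent of that choice. Trf fell by 1.13 on the log2 scale (SE 0.169, edgeR adjusted p = 0.0118) and Csn3 by 0.56 (SE 0.0991, adjusted p = 0.0183), each lower in both libraries from DMBA-treated mice. Both calls held when DMBA was the only term and each library was left out in turn, with adjusted p between 0.000202 and 0.0172 for Trf and between 0.0108 and 0.0449 for Csn3. The rise of Csn2 (log2 6.28, SE 0.575, adjusted p = 0.00410) rests on the DMBA library: with DMBA as the only term and 1 library left out it kept its sign but had an adjusted p of 0.346 without the DMBA library, 0.116 without control and 0.0925 without BPA, and passed at 0.000139 without BPA+DMBA. Csn1s1 (log2 0.09, SE 0.132, adjusted p = 0.693) and Csn1s2a (log2 3.96, SE 1.39, adjusted p = 0.110) did not pass. Without the BPA+DMBA library they did, at 0.0301 and 0.00529, with log2 values of 0.56 and 4.81.

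For BPA over both backgrounds edgeR called 0 of the 5 milk genes and 0% of all genes. At an unadjusted p under 0.05 edgeR gave 2 of the 5, beside 304 of the 13638 genes tested. These were Csn1s1 (log2 -0.73, SE 0.133, edgeR adjusted p = 0.999) and Csn2 (log2 -4.87, SE 0.565, adjusted p = 0.579). DESeq2 called 0 of the milk genes and 1 gene in all. Without a count minimum Csn2 passed in edgeR, at an adjusted p of 0.0367. The count minimum had kept Csn2 through the DMBA library alone, and its BPA value rests on that library, so it gives no support of its own. With BPA as the only term and the DMBA library left out, the log2 value of Csn2 was 0.34, opposite in sign. Departure from additivity is the log2 ratio of BPA+DMBA to DMBA minus that of BPA to control, and it has a counting interval but no test. It was -0.57 for Csn1s1 (interval -0.71 to -0.43), 0.71 for Trf (0.65 to 0.76) and 0.19 for Csn3 (0.14 to 0.24). The 2 caseins at either end of the cluster thus departed in opposite directions. For Csn2 and Csn1s2a, BPA and control had at most 2 counts each, so a departure could not be measured.

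In 5 genes, or 0.0367% of all, 1 library was at least 4-fold above each of the other 3. The high library was DMBA for 4 of these genes (0.0293%) and control for 1 (0.00733%). The 4 were Csn2, Csn1s2a, Rptn and Kprp, all tested only because the DMBA library reached the count minimum, which favours this pattern, so the share is no support for it. Csn2 and Csn1s2a were 4.42 and 2.85 above the next library on the log2 scale, Rptn 2.39 and Kprp 2.18. Rptn encodes repetin, a protein of the cornified envelope, and Kprp a proline-rich protein of keratinocytes. Rptn had 1 count in BPA+DMBA, 20 in DMBA, 1 in BPA and 2 in control, and Kprp had 2, 35, 4 and 5.

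Likeness was measured as the root mean square difference of log2 CPM over the 4 libraries, each gene centred on its own mean. Among the genes most like Csn2 were Atp12a, a proton pump (1.01), and Csn1s2a (1.25), so its pattern had no close match. Atp12a had 78 counts in BPA+DMBA, 517 in DMBA, 25 in BPA and 32 in control. Csn1s2a was most like Kprp (0.621), Rptn (0.724) and Clca3 (0.832). The abundant genes had closer matches: Ppp4r4, Il20rb and Pdlim3 for Csn1s1 (0.0592 to 0.0629), Lyplal1, Pxmp4 and Appl2 for Csn3 (0.00744 to 0.0245), and Col9a1, Pik3cg and Rasef for Trf (0.0319 to 0.0361). Within the set, Csn3 and Trf were the closest (0.343), and Csn2 and Trf the farthest apart (2.90). With 4 libraries, such distances are descriptions.

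No gene of lactogenic signalling passed as rising with DMBA. Of 30 genes of lactogenic signalling 28 were tested, and 0 rose and 10 fell with DMBA, beside 6.67% and 7.72% of all genes. The median log2 ratio was -0.24 between DMBA and control and -0.18 between BPA+DMBA and BPA, beside -0.01 and 0.01 over all genes. Prlr, the prolactin receptor, had 75.5 CPM in BPA+DMBA, 80.7 in DMBA, 146.6 in BPA and 149.7 in control. It fell by 0.92 on the log2 scale (SE 0.0700, edgeR adjusted p = 0.00274). Elf5, a transcription factor of alveolar cells that acts downstream of prolactin, fell by 0.42 (SE 0.0717, adjusted p = 0.0166), Nfib, a nuclear factor that binds milk gene promoters, by 0.65 (SE 0.0968, adjusted p = 0.0117), and Id2, an inhibitor of differentiation factors needed for alveoli, by 0.38 (SE 0.0874, adjusted p = 0.0376).

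The kinase and the STAT5 genes themselves did not pass. Jak2 had a log2 value of -0.18 (SE 0.0967, edgeR adjusted p = 0.258), Stat5a of -0.16 (SE 0.0862, adjusted p = 0.255), Stat5b of -0.30 (SE 0.0805, adjusted p = 0.0571) and Nr3c1, the glucocorticoid receptor, of -0.25 (SE 0.0802, adjusted p = 0.0880). Transcript levels of these genes do not measure their activity. Of the lactogenic genes 0 were at least 2-fold apart in DMBA against control. Not all of the list was lower there. The log2 ratio in DMBA against control was 0.50 for Cish (interval 0.21 to 0.80) and 0.41 for Socs2 (0.28 to 0.53). In BPA+DMBA against BPA the ratios were 0.13 (-0.23 to 0.50) for Cish and 0.20 (0.05 to 0.35) for Socs2. Neither passed for DMBA (edgeR adjusted p = 0.272 for Cish and 0.0780 for Socs2). Whether their levels bear on the casein counts was not tested.

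Among other secretory genes of the alveolus, 34 of 40 listed were tested, and 2 rose and 8 fell with DMBA, beside 6.67% and 7.72% of all genes, with a median log2 ratio of -0.15 between DMBA and control and -0.16 between BPA+DMBA and BPA. Fcgbp, a mucus component, had log2 ratios of -2.61 and -1.65 in these pairs, and Muc1, a mucin of the apical membrane of luminal cells, -2.09 and -1.29, and both fell (edgeR adjusted p = 0.00530 and 0.00536). Cd36, a fatty acid transporter of the milk fat globule membrane, had 1.90 and 1.36 and rose (adjusted p = 0.0134). Summed over the list, the level was 23172 CPM in BPA+DMBA, 21623 in DMBA, 29686 in BPA and 34172 in control, lower in both libraries from DMBA-treated mice. A few abundant genes weigh most in this sum: Ltf, Spp1 and Lcn2 had 10629, 8931 and 4711 CPM in control. Of these, Lcn2 fell (edgeR adjusted p = 0.0344), while Ltf and Spp1 did not pass (adjusted p = 0.0682 and 0.158).

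Of 14 genes of iron handling other than Trf, 12 were tested, and 1 rose and 2 fell with DMBA, beside the same shares of all genes, with a median of -0.08 in DMBA against control. Cp, which encodes the ferroxidase ceruloplasmin, fell by 0.86 on the log2 scale (SE 0.146, edgeR adjusted p = 0.0158). Lcn2, which encodes a siderophore-binding protein, fell by 0.61 (SE 0.138, adjusted p = 0.0344), and Ltf, which encodes the milk iron binder lactoferrin, had a value of -0.56 (SE 0.163, adjusted p = 0.0682). Ltf and Lcn2 are also on the list of secretory genes.

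**Figure D5:**
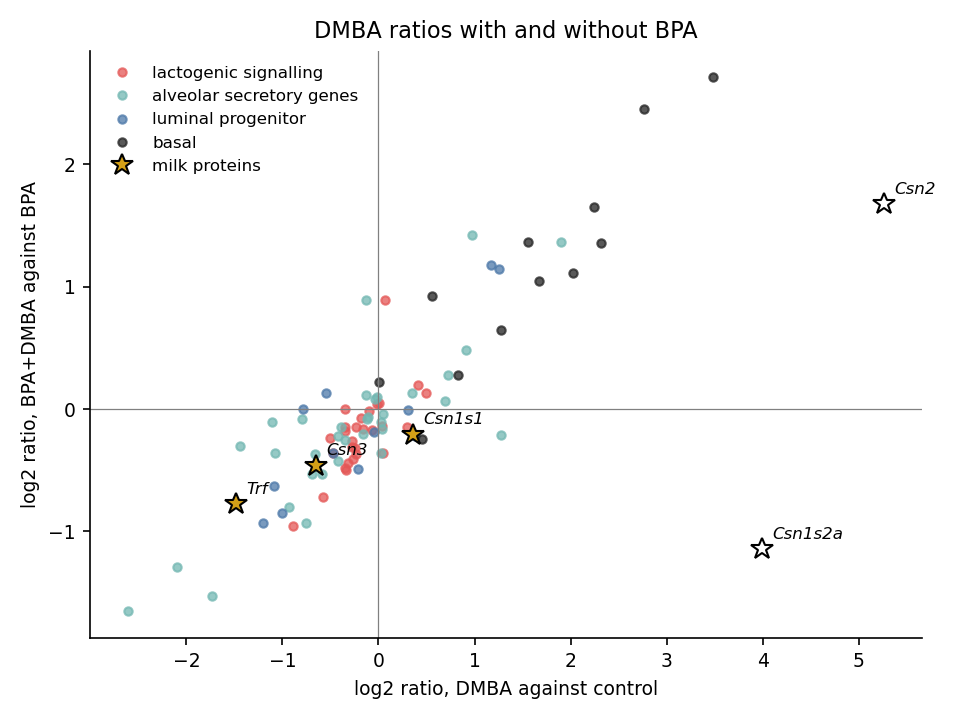
Log2 ratio in DMBA against control (horizontal axis) and in BPA+DMBA against BPA (vertical axis) for genes of lactogenic signalling, alveolar secretion, luminal progenitors and basal cells (points) and for the milk genes (stars; white stars have at most 3 counts in BPA+DMBA and BPA). Trf and Csn3 lie at lower left with most lactogenic genes, Csn2 and Csn1s2a lie far to the right, and most basal genes lie at upper right.

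Summed levels of some cell type markers split by DMBA and those of others did not. The part of cell types in the milk gene results was not tested. The counts of markers that rose or fell stand beside 6.67% and 7.72% of all genes. Of 12 luminal progenitor markers, all tested, 2 rose and 4 fell with DMBA, and their summed level was 1866 CPM in BPA+DMBA, 1922 in DMBA, 2420 in BPA and 2502 in control. The largest ratios in DMBA against control were 1.26 for Aldh1a3, a retinaldehyde dehydrogenase, -1.20 for Lbp, a binding protein of lipopolysaccharide, and 1.17 for Cxcr4, a chemokine receptor. The summed level was thus lower in both libraries from DMBA-treated mice, as Csn3 and Trf were. It was lowest in BPA+DMBA, whereas Trf was lowest in DMBA. Of 12 basal markers 9 rose and 0 fell, with summed levels of 2467, 3036, 1036 and 919.5 CPM in the same order. Actg2 and Myh11, genes of smooth muscle contraction, and Krt17, a keratin, had log2 ratios of 3.49, 2.77 and 2.31 in DMBA against control. Of 9 hormone-sensing luminal markers tested out of 11, 3 rose and 1 fell, with sums of 211.7, 242.6, 250.1 and 234.1 CPM. The largest ratios in DMBA against control were 1.65 for Pgr, the progesterone receptor, and 1.01 for Ly6a, a surface antigen, both of which rose, and 0.94 for Areg, a growth factor, which did not pass (edgeR adjusted p = 0.108).

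Other cell types were traced with shorter lists. Of 10 fibroblast markers 3 rose and 0 fell, with sums of 8927 CPM in BPA+DMBA, 5368 in DMBA, 6467 in BPA and 8681 in control. The largest ratios in DMBA against control were 1.00 for Dpt and 0.87 for Fbln1, genes of matrix proteins, and -0.97 for Thy1, a surface glycoprotein. Of 8 adipocyte markers 2 were tested and 1 rose, Fabp4 at a ratio of 1.62, while Pparg had 1.09 and did not pass, and of 10 immune markers 3 were tested and 1 rose, Lyz2 at 1.75, while Csf1r had -1.13 and Cd68 0.11. Summed levels were 18.0, 21.0, 8.62 and 7.21 CPM for adipocyte and 29.1, 25.4, 28.6 and 23.7 CPM for immune markers in BPA+DMBA, DMBA, BPA and control. Of 10 genes of liver and other glands 1 was tested, Amy1 at -0.29, and it did not pass, with sums of 2.45 to 3.00 CPM.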

How the data were processed

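Unnormalized counts for 22609 gene symbols were deposited by the authors, and the 5 entries that name no gene were kept out of library sizes and tests. These entries made up, per library, 11.3% to 13.5% of all deposited counts for reads outside genes and 22.9% to 25.6% for reads aligned to several places. CASAVA 1.8.2, HTSeq and DESeq are named, with build mm9, in the submitters' processing notes. Which aligner and strand setting were used is not given in the sources used here. Counts were analysed in R 4.3.3 with edgeR 4.0.16 (TMM scaling, which is the trimmed mean of M-values, over the 13638 genes that reached 20 counts in some library, prior count 2, additive quasi-likelihood test, Benjamini-Hochberg adjustment over all of them, threshold 0.05). DESeq2 1.42.0 was an alternative. Transcript lengths came from GENCODE M21 (GRCm38) for 99.06% of kept genes. Members, lists and the rule for naming genes (all 8 milk genes, 6 signalling genes, and up to 3 genes a list with the largest ratio in DMBA against control; 3 genes for likeness) were chosen with earlier results of these data known. Genes named outside that rule are Krt5, Kit, Adipoq, Ptprc, Alb, Odam, Rufy3, Expi, Socs2, Cish and Spp1. Expi, Socs2, Cish and Spp1 were named after their values were seen. A gene that the likeness rule picks is not reported here. Lists cover lactogenic signalling, secretion, iron handling, the casein cluster and cell types.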

Additional observations from a re-analysis of the deposited data

Results flagged for a closer look

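Csn1s1 went opposite ways with DMBA on the 2 backgrounds, higher in DMBA than in control (log2 ratio 0.36) and lower in BPA+DMBA than in BPA (-0.21). The departure between them was -0.57 on the log2 scale.

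Trf went opposite ways with BPA, higher in BPA+DMBA than in DMBA (0.54) and lower in BPA than in control (-0.17), a departure of 0.71. Neither difference could be tested against replicates, since each group is 1 library, and the intervals given for them cover counting error only.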

How the results depend on the processing

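The counts of milk genes differing in each of the 5 pairs were the same under DESeq2 size factors, total counts alone, no count minimum, a prior count of 0.5, thinning to the smallest total and removal of the trend with transcript length. Of 180 recomputed ratios and departures 161 stayed within the counting interval of the value given, 19 moved beyond it and 0 reversed a difference of at least 2-fold. Total counts alone shifted the median of all genes in DMBA against control to 0.10. With DMBA as the only term and 1 library left out, 2 to 5 milk genes passed, against 3; the lone library of a group is then assumed to vary like the others. For BPA, 1 passed without a count minimum (Csn2, whose value rests on the DMBA library), against 0. DESeq2 called the same number of milk genes for DMBA, 3, and gave no adjusted p for Csn1s2a. Over all genes it called 675 for DMBA against 1962 in edgeR, while with DMBA as the only term 2610 passed over all libraries and 969 with control also left out. For BPA over all genes, 2 passed without a count minimum and 1 in DESeq2, against 0. Genes at least 2-fold apart in BPA against control numbered 172 without a count minimum, against 113, and 70 genes stood at least 2-fold above all other libraries, against 5 at 4-fold. No paired analysis was possible because each group is 1 library. Depth limits Csn1s2b, Wap and Lalba: at most 1, 1 and 16 counts leave changes of 2-fold undetectable.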

Other observations

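Expi, an older symbol of a gene for a small protease inhibitor related to whey acidic protein, was named after its values were seen. It had 1261 CPM in BPA+DMBA, 1603 in DMBA, 1203 in BPA and 989 in control, so it was highest in the DMBA library, as Csn1s1 was, while Wap itself was at the edge of detection. Its log2 ratio was 0.70 in DMBA against control (interval 0.68 to 0.72), 0.07 in BPA+DMBA against BPA (0.04 to 0.10) and -0.35 in BPA+DMBA against DMBA, and it did not pass for DMBA (log2 0.38, SE 0.163, edgeR adjusted p = 0.168).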
